A study of Mus musculus with 2 samples.

Results

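The aminoacyl-tRNA synthetases are the enzymes that attach each amino acid to its matching tRNA, the step that supplies the ribosome. The set described here held the 36 genes of a named list, 20 for cytosolic enzymes and 16 for mitochondrial enzymes. They were taken by gene name, with earlier results of these data known, and all 36 were found among the 17216 genes of the series. RNA came from C57BL/6 mouse cells sorted by flow cytometry and labelled LT-HSCs, the long-term stem cells of the blood. One group was Ccp3-/-, lacking the carboxypeptidase CCP3, and the other was wild type littermates. The sort gate, per the series' design text, took lineage-negative cells with CD150, c-Kit and Sca-1 on their surface and without CD48. Each genotype had 1 library, so there is no replicate check and no test between genotypes. The labels give neither the age and sex of the mice, nor how many were pooled, nor where the allele was cut.

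The nucleus encodes a cytosolic enzyme for every amino acid and a separate mitochondrial set, whose genes mostly end in 2. The mitochondrial set serves the few proteins that the mitochondrial genome encodes. Each synthetase belongs to class I or class II by the fold of its catalytic domain, and in animals several cytosolic ones sit in a large multisynthetase complex. When amino acids are short, uncharged tRNA activates the kinase GCN2, the factor ATF4 is translated, and ATF4 raises transcription of many cytosolic synthetase genes through C/EBP-ATF response elements. Blood stem cells are known for low and tightly controlled protein synthesis.

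Values are FPKM, which divide the fragments of a gene by its transcript length and by library depth, so levels can be compared between genes. The KO library is named by its label, because Agbl3, the gene of CCP3, was listed at 0.66 FPKM there and at 1.11 FPKM in the WT library. From about 15 and 23 reads, the KO over WT ratio was 0.595 (95% counting interval 0.289 to 1.19). Agbl3 RNA was thus still present in the KO library, and its lower value there was within counting error. Transcripts outside the deleted part would still count. Low FPKM values fell on steps that gave about 14.2 M reads in the KO and 15.4 M in the WT library. Reads per gene estimated from these steps gave each ratio an interval that covers counting error only. The libraries also differed in cell type markers and sex-linked genes. Cd48, whose protein the gate excluded, stood at 114 FPKM in the KO and 136 FPKM in the WT library. Slamf1, which encodes the CD150 that the gate selected, stood at 3.40 FPKM in the KO and 2.14 FPKM in the WT library. Kit, for c-Kit, stood at 56.5 FPKM in the KO and 59.7 FPKM in the WT library, and Ly6a, for Sca-1, at 28.4 and 49.1 FPKM. The Cd48 and Slamf1 levels are not those the gate selects for, while Kit and Ly6a were present in both libraries. RNA is not surface protein, and the identity of the sorted cells could not be checked from these values. Xist stood at 44.2 and 5.38 FPKM and the Y-linked Ddx3y at 5.93 and 13.8 FPKM in the KO and WT libraries.

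Promoters were read for the element that ATF4 uses. RefSeq windows of the build GRCm38.p6, from 250 bases before to 50 after the annotated start, were at hand for 13 cytosolic and 14 mitochondrial members. The C/EBP-ATF response element was searched as TGATGNAA on both strands. It was 1 of 12 patterns, covering 10 motifs, that were all tried after the values had been seen, and it is shown because it stood out among them. It was found in 5 of 13 cytosolic windows (Aars, Gars, Iars, Tars and Yars) and in 0 of 14 mitochondrial windows. Of all 27025 genes with a window, 4.51% had a match, and of the genes that averaged 1 FPKM or more 2.82% had a match. In the list of ATF4 response genes described further on, it was found in 7 of 22. The stretches below hold the matches, read 5′ to 3′ along the gene, with the 8 matching bases in capitals.

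Aars, chr8:111033650-111033749, plus strand: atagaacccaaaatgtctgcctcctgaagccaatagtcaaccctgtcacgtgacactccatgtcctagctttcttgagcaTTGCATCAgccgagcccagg

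Aars, chr8:111033771-111033870, plus strand: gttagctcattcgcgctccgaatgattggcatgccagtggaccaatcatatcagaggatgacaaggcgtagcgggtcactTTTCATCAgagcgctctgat

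Gars, chr6:55037891-55037990, plus strand: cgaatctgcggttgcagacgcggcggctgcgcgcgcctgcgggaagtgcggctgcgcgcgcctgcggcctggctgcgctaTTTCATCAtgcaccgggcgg

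Iars, chr13:49682057-49682156, plus strand: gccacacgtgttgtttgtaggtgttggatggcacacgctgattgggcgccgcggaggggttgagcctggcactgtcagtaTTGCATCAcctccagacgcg

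Tars, chr15:11399654-11399753, minus strand: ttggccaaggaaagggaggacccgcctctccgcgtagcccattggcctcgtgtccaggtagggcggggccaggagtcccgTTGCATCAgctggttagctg

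Yars, chr4:129189826-129189925, plus strand: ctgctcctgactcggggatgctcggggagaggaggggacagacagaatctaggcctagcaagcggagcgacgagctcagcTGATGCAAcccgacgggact

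Cytosolic synthetase transcripts were a little more abundant in the KO library, and mitochondrial ones were about level. The summed level of the 20 cytosolic genes was 1229 FPKM in the KO and 1081 FPKM in the WT library, a ratio of 1.14 (1.12 to 1.15). The 16 mitochondrial genes summed to 186 FPKM in the KO and 183 FPKM in the WT library, a ratio of 1.02 (0.988 to 1.05). Kars was the sole cytosolic gene with a lower value in the KO library. The larger gaps were in Eprs, Iars and Nars, which made up 57.7% of the cytosolic gain in summed FPKM. Without these 3 genes, singled out after their values were seen, the ratio of the sums over the other 17 was 1.07. The cytosolic genes took 0.243% of all FPKM in the KO and 0.187% in the WT library.

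**Figure D1:**
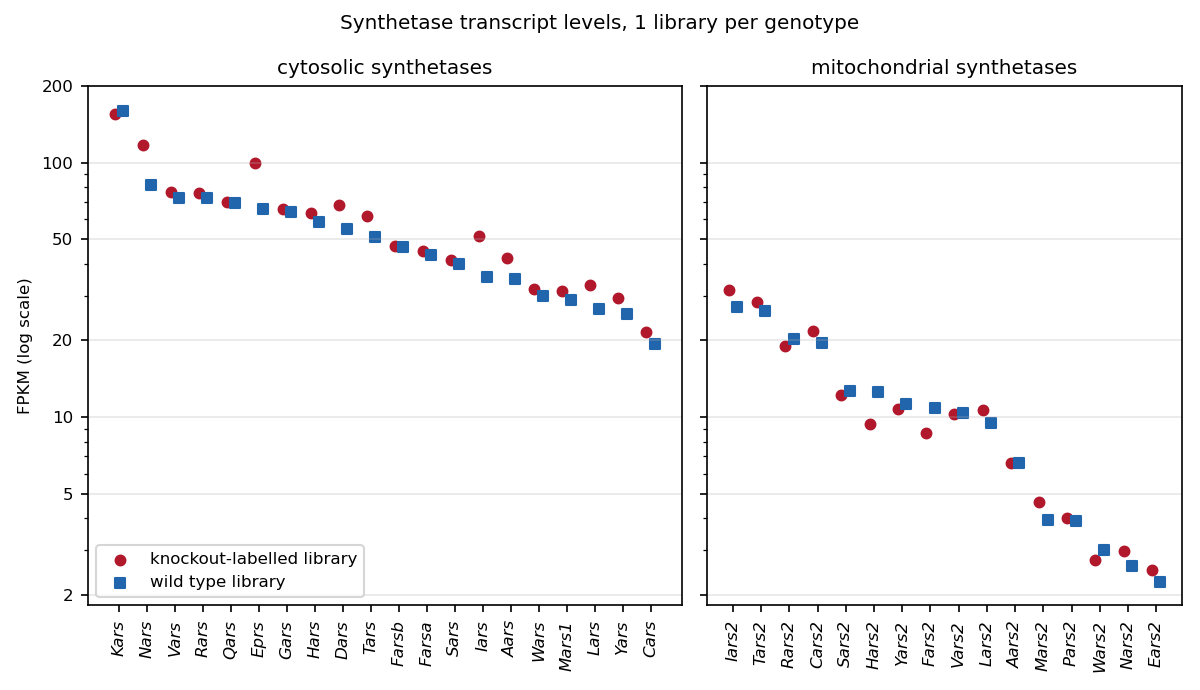
FPKM of the 20 cytosolic (left) and 16 mitochondrial (right) synthetase genes on a log axis, with a red circle for the KO library and a blue square for the WT library, ordered by WT level. Kars is at the top in both libraries, Eprs, Nars and Iars show the wider gaps, and most mitochondrial genes lie below the lowest cytosolic gene.

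The difference of a gene is log2(FPKM + 1) in the KO minus that in the WT library. Genes were counted by size, at 1.5-fold, among the 11985 genes that averaged 1 FPKM or more over both libraries, called expressed genes here. All 36 synthetase genes were among them. Among cytosolic genes, 1 of 20 was at least 1.5-fold higher (Eprs) and 0 were at least 1.5-fold lower, against 6.12% of expressed genes higher and 6.14% lower. At a difference of 0.32 or more, a smaller size threshold, 3 of 20 were higher (Eprs, Iars and Nars) and 0 lower, against 17.9% of expressed genes higher and 17.1% lower. The share of large differences was thus close to the background or below it. Small positive differences were common, since 19 of 20 cytosolic genes had a difference above 0, against 50.8% of expressed genes. Their median difference was 0.12, against 0.01 over expressed genes. Of other expressed genes with transcripts of 1846 to 4850 bases, the range of the cytosolic members, 54.5% were above 0, with a median of 0.03.

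Mitochondrial genes stayed close to the level of all genes. None of the 16 was 1.5-fold higher or lower, and 1, Hars2, was lower by 0.32 or more. A difference above 0 was seen in 9 of the 16, and the median difference was 0.02. Counting intervals of the ratio lay above 1 for 12 of the 20 cytosolic genes and below 1 for 0, against 31.1% and 27.0% of expressed genes. Among mitochondrial genes the interval lay above 1 for 1, below 1 for 2 and held 1 for 13. Cytosolic genes rested on at least 877 estimated reads in each library and mitochondrial genes on as few as 129, so the intervals of the mitochondrial genes are wider. Expressed genes reach down to a mean of 1 FPKM, and intervals widen with fewer reads. Their shares are thus not a like background for the cytosolic interval counts.

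Scaling bears on these counts, because the FPKM sum was 506124 in the KO and 577420 in the WT library. With both libraries scaled to equal sums, the median of expressed genes moved to 0.18. The cytosolic median then stood at 0.30 and the mitochondrial median at 0.18, so relative to all genes the first stayed above and the second was level. All 20 cytosolic and 14 of 16 mitochondrial genes were then above 0, a count that this scaling raises for expressed genes as well. Under that scaling 3 of 20 cytosolic genes were 1.5-fold higher, against 12.1% of expressed genes higher and 3.25% lower. With equal upper quartiles, the median of expressed genes was −0.02. Then 17 of 20 cytosolic and 8 of 16 mitochondrial genes were above 0, as Farsb and Qars joined Kars below it.

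**Figure D2:**
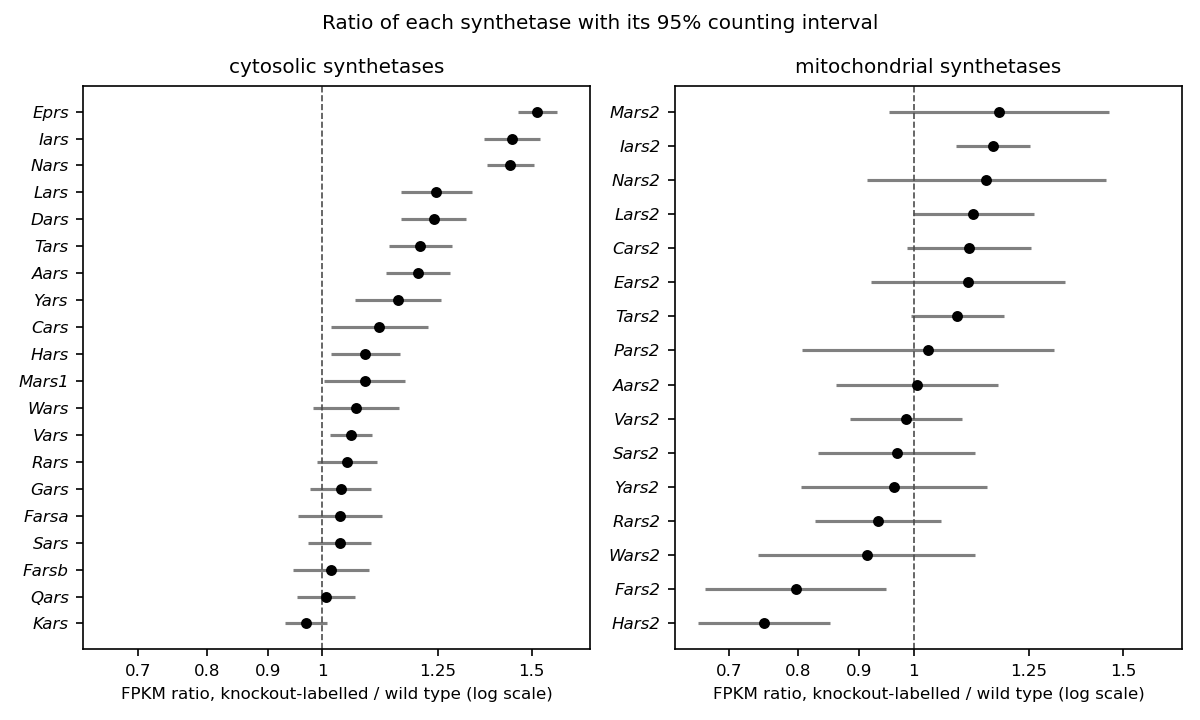
Ratio of FPKM in the KO over the WT library on a log axis for each cytosolic (left) and mitochondrial (right) synthetase gene, with the 95% counting interval as a bar and a dashed line at 1. Eprs, Iars and Nars stand apart at 1.52, 1.44 and 1.44, and Hars2 and Fars2 are the mitochondrial genes whose intervals lie below 1.

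The cytosolic genes with the wider gaps came first. Eprs, whose product joins the glutamyl- and prolyl-tRNA synthetases in a single chain, was listed at 99.8 FPKM in the KO and 65.8 FPKM in the WT library. Its ratio was 1.52 (1.46 to 1.57), and the KO library had the higher value. Nars, for asparagine, stood at 117 FPKM in the KO and 81.5 FPKM in the WT library, a ratio of 1.44 (1.37 to 1.51). Iars, for isoleucine, stood at 51.3 and 35.5 FPKM in the KO and WT libraries, a ratio of 1.44 (1.37 to 1.52). Reads that match Iars may also come from a processed pseudogene that is 96.0% identical to it over 1656 bases.

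A middle group of 6 genes had ratios from 1.12 to 1.247, each with an interval above 1. Lars, whose enzyme charges leucine and has been described as a leucine sensor for mTORC1, was listed at 33.1 FPKM in the KO and 26.5 FPKM in the WT library. Dars, for aspartate, stood at 68.1 and 54.9 FPKM, and Tars, for threonine, at 61.9 and 51.2 FPKM in the KO and WT libraries. All of these were higher in the KO library. Aars, for alanine, stood at 42.1 and 35.0 FPKM in the KO and WT libraries, and its exons overlap those of Exosc6 on the same strand. Yars, whose gene is mutated in an inherited human neuropathy, stood at 29.5 and 25.5 FPKM in the KO and WT libraries. Cars, for cysteine, was the least abundant cytosolic gene in both, at 21.6 FPKM in the KO and 19.3 FPKM in the WT library.

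In the rest the libraries were close. Hars (63.6 FPKM in the KO and 58.5 FPKM in the WT library), Mars1 (31.4 and 28.9 FPKM) and Vars (76.8 and 72.6 FPKM) had ratios of 1.06 to 1.09, with intervals that lay above 1. They charge histidine, methionine and valine. For 8 genes the interval held 1, and these charge lysine, glutamine, glycine, arginine, serine, tryptophan and phenylalanine. Kars, which makes both the cytosolic and the mitochondrial lysyl enzyme, was the most abundant member at 155 FPKM in the KO and 160 FPKM in the WT library. Gars likewise serves both compartments and stood at 66.0 and 63.7 FPKM in the KO and WT libraries. Neither differed beyond counting error, and the sum over the 18 cytosolic genes that serve 1 compartment had a ratio of 1.18 (1.16 to 1.19).

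Qars, for glutamine, was listed at 70.1 FPKM in the KO and 69.6 FPKM in the WT library. Rars, for arginine, stood at 76.1 and 72.5 FPKM and Sars, for serine, at 41.3 and 39.9 FPKM in the KO and WT libraries. Wars, which is induced by interferon in human cells, stood at 32.0 and 30.0 FPKM in the KO and WT libraries, a ratio of 1.07 (0.982 to 1.16). Farsa and Farsb encode the alpha and beta subunits that together form the phenylalanyl enzyme, and their levels were nearly equal. Farsa stood at 44.9 FPKM in the KO and 43.4 FPKM in the WT library, and Farsb at 47.2 and 46.4 FPKM. The Farsb over Farsa ratio of levels was 1.05 in the KO and 1.07 in the WT library.

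Among mitochondrial genes, Hars2 and Fars2 had lower values and Iars2 a higher value in the KO library. Hars2, for histidine, was listed at 9.42 FPKM in the KO and 12.6 FPKM in the WT library, a ratio of 0.749 (0.659 to 0.8502). Fars2, for phenylalanine, stood at 8.67 and 10.9 FPKM in the KO and WT libraries, a ratio of 0.796 (0.668 to 0.947). Iars2, for isoleucine, was the most abundant mitochondrial gene at 31.7 FPKM in the KO and 27.2 FPKM in the WT library, a ratio of 1.17 (1.086 to 1.253). These assignments have limits. Hars2 and Hars lie on opposite strands and share 195 exonic bases in the GENCODE M21 annotation, and Iars2 shares 2034 with Rab3gap2. Strand use in counting is not given in what was read here, and reads from such an overlap could belong to either gene. In all, 9 members overlap a listed gene on the opposite strand.

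The other 13 mitochondrial genes had intervals that held 1. Tars2 (28.3 FPKM in the KO and 26.1 FPKM in the WT library), Cars2 (21.8 and 19.6 FPKM) and Rars2 (19.0 and 20.4 FPKM) were the more abundant. Sars2 (12.3 FPKM in the KO and 12.7 FPKM in the WT library), Yars2 (10.8 and 11.2 FPKM), Lars2 (10.7 and 9.51 FPKM), Vars2 (10.2 and 10.4 FPKM) and Aars2 (6.61 and 6.57 FPKM) followed. The remaining 5 had means under 5 FPKM. They were Mars2 (4.63 FPKM in the KO and 3.93 FPKM in the WT library), Pars2 (4.02 and 3.91 FPKM), Nars2 (2.98 and 2.59 FPKM), Wars2 (2.74 and 3.0 FPKM) and Ears2 (2.50 and 2.25 FPKM). Over these 13 genes the ratios ran from 0.913 in Wars2 to 1.18 in Mars2.

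Transcripts of the cytosolic enzyme outnumbered those of the mitochondrial enzyme for nearly every amino acid with a listed pair. The 4 cytosolic genes without a listed mitochondrial partner, Dars, Gars, Kars and Qars, were not compared. Of 17 pairs that share an amino acid, counting Eprs with both Ears2 and Pars2 and Fars2 with both Farsa and Farsb, 16 had the higher level in the cytosolic gene, in each library. The exception was cysteine, where the Cars over Cars2 ratio of levels was 0.992 in the KO and 0.988 in the WT library. The wider ratios were for Nars over Nars2, at 39.3 in the KO and 31.5 in the WT library, and for Eprs over Ears2, at 39.9 and 29.2. The cytosolic gene also had the more positive difference in 16 of 17 pairs, methionine being the exception with 0.11 for Mars1 and 0.19 for Mars2. Less the median of genes of like length, described further on, the count was 14 of 17, with cysteine and serine added to the exceptions. Pairs that share a gene are not independent. The order of levels was nearly the same in both libraries, with a Spearman correlation of 0.97 across the 20 cytosolic and 0.96 across the 16 mitochondrial genes.

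Neither the complex nor the class of the enzyme set the cytosolic genes apart by much. The 8 genes whose products sit in the multisynthetase complex (Dars, Eprs, Iars, Kars, Lars, Mars1, Qars and Rars) had a median difference of 0.21 and a summed ratio of 1.14 (1.12 to 1.16). The 12 outside it had a median of 0.10 and also a summed ratio of 1.14 (1.12 to 1.16). Class I genes had a median of 0.11 over 9 genes and class II genes 0.08 over 10, with Eprs, which spans both, left out. The 3 scaffold genes of the complex did not share a direction. Aimp1 stood at 71.1 FPKM in the KO and 90.6 FPKM in the WT library, a ratio of 0.784 (0.725 to 0.849), and Aimp2 at 42.0 and 46.8 FPKM. Eef1e1, the third scaffold, stood at 29.0 FPKM in the KO and 24.4 FPKM in the WT library, a ratio of 1.19 (1.03 to 1.37). These transcripts are short, and after the length centring described next their differences were −0.11 for Aimp1, 0.04 for Aimp2 and 0.45 for Eef1e1. The median of the 3 was −0.15 before centring and 0.04 after it.

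Differences followed transcript length in these libraries. Across the 11985 genes the Spearman correlation of difference and length was 0.428, and genes are not replicates. By length, the medians were −0.18 for transcripts under 2 kb, −0.01 from 2 to 3 kb, 0.06 from 3 to 4 kb, 0.14 from 4 to 5 kb and 0.25 over that. Across the 20 cytosolic members the correlation was 0.57, and across the 16 mitochondrial members 0.247. Eprs, at 4850 bases, and Iars, at 4396 bases, are the longest cytosolic transcripts, while Nars has 2662 bases. Each difference was therefore also given less the median of the 200 other genes nearest in length. After that, 18 of 20 cytosolic genes were above 0, against 6001 of 11985 expressed genes. The cytosolic median was 0.15 and the mitochondrial median 0.04. Nars then led at 0.51, with Eprs at 0.44 and Iars at 0.44, and the 2 genes below 0 were Vars (−0.08) and Sars (−0.03). Hars2 and Fars2 stood at −0.43 and −0.22. No cytosolic gene was 1.5-fold higher on this scale.

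**Figure D3:**
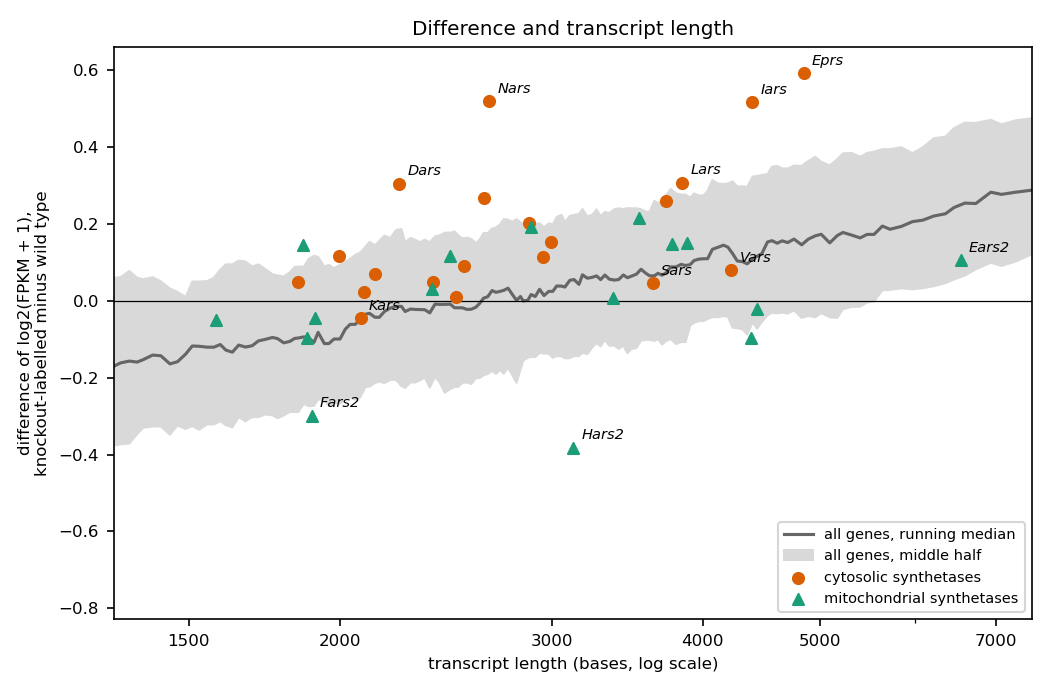
Difference of log2(FPKM + 1), KO minus WT library, against transcript length on a log axis, with cytosolic genes as orange circles and mitochondrial genes as green triangles. The grey line is the running median of expressed genes and the band their quartiles. The line climbs with length. Nars, Eprs and Iars lie farthest above the band, and others, such as Dars, Tars and Cars2, also lie above it. Hars2, Fars2 and Wars2 lie below it.

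The 5 cytosolic genes whose promoters hold the response element, printed earlier, had differences from 0.05 (Gars) to 0.52 (Iars), with a median of 0.26. The 8 cytosolic genes with a window and no match ranged from −0.05 (Kars) to 0.59 (Eprs), with a median of 0.05. The 7 with no window, Nars among them, ranged from 0.07 to 0.52, with a median of 0.12. After length centring, the 5 ran from 0.06 (Gars) to 0.44 (Iars). The 8 then ran from −0.03 (Sars) to 0.44 (Eprs). The ranges overlap, and Eprs, the gene with the highest ratio, has no match in its window. A match is a stretch of letters and not a measured binding site, and no match says nothing of sites elsewhere.

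The other motifs did not part the compartments in the same way. The NRF1 core CGCANGCG was in 6 of 13 cytosolic and 4 of 14 mitochondrial windows, against 9.22% of all genes and 19.6% of expressed genes. YY1, searched as AANATGGCG, was in 1 cytosolic and 4 mitochondrial windows (Aars2, Lars2, Wars2 and Yars2), against 2.76% and 6.29% of the same. The ETS motif CCGGAAGT was in 2 and 1 windows, against 4.31% of all and 9.62% of expressed genes, and the E-box CACGTG in 4 and 1, against 8.09% and 12%. The short CCAAT was in 7 and 6 windows, against 41.1% and 43.7%. The CRE TGACGTCA and the Ronin motif ACTACAA were in 0 members, against 3.60% and 5.11% of expressed genes. The ER stress element and the GFY motif were also in 0 members. Another form of 2 motifs was tried as well: TTGCATCA, a strict form of the response element, was in 4 of 13 cytosolic (Aars, Iars, Tars and Yars) and 0 of 14 mitochondrial windows, against 1.03% of all and 0.725% of expressed genes. The long form of the NRF1 motif was in 3 and 2 windows, against 5.19% of all and 11.9% of expressed genes, and was replaced by the core above. No response element match overlapped a match of another motif.

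Other steps that use charged tRNA went different ways. Of expressed genes, 6.12% were 1.5-fold higher and 6.14% lower, which is the background for the counts in this and the following lists. All 5 cytosolic elongation factor genes had lower values in the KO library, with a median difference of −0.28, and 1 of them was 1.5-fold lower. That was Eef1b2, an exchange factor subunit, at 338 FPKM in the KO and 530 FPKM in the WT library, a ratio of 0.637 (0.621 to 0.654). Eef1a1, which carries charged tRNA to the ribosome, stood at 6635 and 8060.2 FPKM, Eef1g at 756 and 961 FPKM, and Eef2, which moves the ribosome along, at 998 and 1185 FPKM in the KO and WT libraries. After length centring all 5 were still below 0, with a median of −0.25, but Eef1b2, at −0.53, was no longer past 1.5-fold. Of 10 mitochondrial translation factors, 0 were past 1.5-fold either way, with a median of 0.04. Among them Gfm1 (32.1 FPKM in the KO and 26.2 FPKM in the WT library) and Tsfm (17.4 and 14.2 FPKM) had positive differences, and Mtif3 (9.09 and 11.6 FPKM) and Mrrf (13 and 16.1 FPKM) negative ones.

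Mitochondria charge glutamine tRNA by converting a misacylated tRNA, through the products of Qrsl1, Gatb and Gatc. In a separate reaction, the product of Mtfmt formylates the initiator tRNA. These 4 genes were within 1.5-fold, with a median difference of −0.08, and of 0.01 after length centring, with 2 genes above and 2 below 0. Gatb stood at 9.55 FPKM in the KO and 8.49 FPKM in the WT library and Qrsl1 at 6.41 and 7.10 FPKM. Mtfmt stood at 12.4 and 13.3 FPKM, and Gatc at 20.5 and 21.4 FPKM, and all these intervals held 1.

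Of 7 proofreading and synthetase-like genes, 1 was 1.5-fold higher and 0 were lower, against 6.12% of expressed genes higher and 6.14% lower. The median difference was −0.01. The higher gene was Tarsl2, a second threonyl enzyme close in sequence to Tars, at 11.01 FPKM in the KO and 6.89 FPKM in the WT library, a ratio of 1.60 (1.39 to 1.84). After length centring its difference was 0.55, under 1.5-fold, and the median of the list was 0.02. Dtd1, which removes wrongly attached D-amino acids, stood at 21.7 and 28.3 FPKM, and Prorsd1 at 6.58 and 8.51 FPKM in the KO and WT libraries. Ptrh2, a peptidyl-tRNA hydrolase, stood at 13.1 and 14.4 FPKM. Of 19 expressed tRNA maturation and export genes, 1 was 1.5-fold higher and 2 were lower, against the same shares of expressed genes. The median difference was −0.08. Xpot, the exporter of tRNA from the nucleus, stood at 28.5 FPKM in the KO and 17.9 FPKM in the WT library. Its ratio was 1.60 (1.497 to 1.70). The 2 lower genes encode RNase P subunits, Rpp21 (23.2 FPKM in the KO and 41.0 FPKM in the WT library) and Pop4 (28.2 and 44.0 FPKM). After length centring none of the 3 was past 1.5-fold, with differences of 0.46 for Xpot, −0.40 for Rpp21 and −0.43 for Pop4, and the median of the list turned to 0.02.

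**Figure D4:**
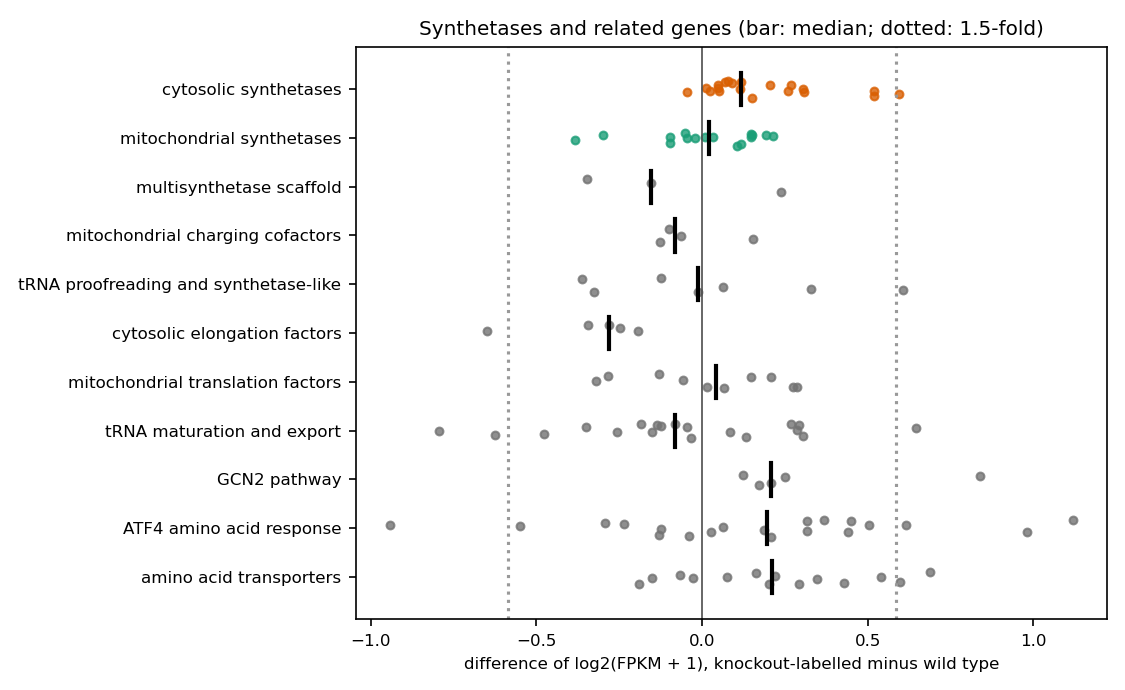
Difference of log2(FPKM + 1), KO minus WT library, for each expressed gene in the synthetase groups and 9 related lists, with a black bar at each median and dotted lines at 1.5-fold. Cytosolic synthetases sit mostly right of 0, elongation factors all left of it, and the ATF4 list spreads from −0.94 to 1.12.

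Genes of the GCN2 pathway, which responds to uncharged tRNA, had positive differences whose median was near 0 after length centring, and genes of the ATF4 response went both ways. Eif2ak4, which encodes GCN2, stood at 11.5 FPKM in the KO and 10.1 FPKM in the WT library, its partner Gcn1 at 17.6 and 14.6 FPKM, and the GCN2 inhibitor Impact at 8.71 and 7.41 FPKM. Of the 5 genes of this list, 1 was 1.5-fold higher, Ppp1r15b, a phosphatase subunit that reverses the GCN2 mark on eIF2, at 29.3 FPKM in the KO and 15.9 FPKM in the WT library. Eif2s1, which encodes the eIF2 subunit that GCN2 marks, stood at 48.6 and 44.5 FPKM in the KO and WT libraries. The median difference of the 5 was 0.21, and 0.04 after length centring. Centred, Eif2ak4 stood at −0.00 and Gcn1 at −0.10, while Ppp1r15b, at 0.63, was still past 1.5-fold. Of 20 expressed ATF4 response genes, 3 were 1.5-fold higher and 1 lower, against 6.12% of expressed genes higher and 6.14% lower. The median difference was 0.20. Nupr1 stood at 44.3 FPKM in the KO and 19.9 FPKM in the WT library, and Cebpb, a partner and target of ATF4, at 21.95 and 10.6 FPKM. The third was Gpt2, at 1.88 and 0.88 FPKM, and the lower gene was Trib3, at 0.77 and 2.40 FPKM in the KO and WT libraries. These last were named after their values were seen. After length centring Gpt2, at 0.55, was under 1.5-fold, and Nupr1, Cebpb and Trib3, at 1.43, 1.11 and −0.89, were past it. The median of the ATF4 list was then 0.13, with 12 genes above and 8 below 0.

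Ddit3, which encodes CHOP, stood at 23.5 FPKM in the KO and 34.8 FPKM in the WT library, while Mthfd2, of mitochondrial folate metabolism, stood at 24.99 and 17.3 FPKM. Ddit3 and Mars1 share 68 exonic bases on opposite strands. Of 14 expressed amino acid transporter genes, 2 were 1.5-fold higher and 0 lower, against 6.12% of expressed genes higher and 6.14% lower. The median difference was 0.21 and the length-centred median 0.16. Slc7a5, the importer of large neutral amino acids such as isoleucine and leucine, stood at 48.3 FPKM in the KO and 29.6 FPKM in the WT library, a ratio of 1.63 (1.53 to 1.74). Slc7a1, for cationic amino acids, stood at 12.7 and 8.06 FPKM, Slc38a1, for glutamine and other neutral amino acids, at 30.2 and 22.2 FPKM, and Slc36a1 at 11.5 and 8.87 FPKM in the KO and WT libraries. After length centring Slc7a5, at 0.61, was still past 1.5-fold, while Slc7a1 stood at 0.32, Slc38a1 at 0.15 and Slc36a1 at 0.20.

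Marker genes of other cell types differed between the same libraries. They were counted at 1.5-fold, a size that 6.12% of expressed genes passed upward and 6.14% downward. Of 19 neutrophil and granulocyte precursor markers, 12 were 1.5-fold higher and 0 lower, and they summed to 12367 FPKM in the KO and 8847 FPKM in the WT library. Of 10 monocyte markers 4 were higher (891 and 751 FPKM summed in the KO and WT libraries), and of 6 plasma cell markers 4 were higher (270.3 and 146 FPKM). Of 13 B cell markers 11 were lower (72.7 and 162 FPKM), of 13 dendritic cell markers 8 (355 and 586 FPKM), of 9 red cell markers 6 (447 and 1495 FPKM) and of 9 T and NK cell markers 4 (66.4 and 95.4 FPKM). Of 15 LT-HSC and gate genes 1 was higher and 4 were lower (491 and 659 FPKM). These sums include Cd48, whose protein the gate excluded, at 114 FPKM in the KO and 136 FPKM in the WT library. They are thus not a measure of stem cell genes alone. Sums cover every marker found, also those under 1 FPKM, and no marker found was at 0 in either library. In bulk RNA, fewer cells of a type and less RNA per cell cannot be told apart, and the part of these markers in the synthetase values was not tested.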

How the data were processed

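Each library's deposited file lists genes by Entrez and RefSeq identifiers with FPKM, per the file headers, and the FPKM were made by the authors. The submitters' processing notes name HISAT, HISAT2, RSEM and mm9, without roles or versions. RefSeq (GRCm38.p6) gave symbols for 17169 of 17216 identifiers. An unlisted gene was taken as 0.

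Differences are log2(FPKM + 1), KO minus WT, and understate changes of low genes. To estimate reads, FPKM times length (less 40 bases in KO, 41 in WT) was divided by a step of 70.2 in KO and 65 in WT, fitted on genes of at most 1300 bases, 1 transcript and under 12 reads. Within 0.15 of a whole read were 88.4% of 632 KO and 87.3% of 637 WT values. These limits were picked after 6 settings had been compared, whose steps ran from 68.8 to 70.3 (KO) and 64.2 to 65 (WT). Ratio intervals are exact conditional 95% intervals. Overlaps and near copies (95% identity over 300 bases) came from GENCODE M21.

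Members and lists were chosen with earlier results of these data known. The motif patterns, the overlap limits and the Eprs, Iars and Nars grouping were chosen after their values were seen. Named were all members, Agbl3, up to 4 genes per related list averaging 5 FPKM or more by size of difference, and each such gene past 1.5-fold. Some genes of these lists are not reported here. The procedure was tested on simulated reads that varied by counting error only, so that test does not bear on variation between libraries or animals. Versions were Python 3.11.15, matplotlib 3.10.9, scipy 1.17.1, pandas 2.3.3 and numpy 2.4.6.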

Additional observations from a re-analysis of the deposited data

How the results depend on the processing

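The count of 1 cytosolic synthetase at least 1.5-fold higher, Eprs, rests close to the threshold. It was 0 with a pseudocount of 5 FPKM, with equal upper quartiles, after length centring and at 2-fold, and 3 with equal FPKM sums and at the smaller size threshold (a difference of 0.32). At that threshold the count of mitochondrial genes lower was 1. With equal FPKM sums the cytosolic median was 0.302, the cytosolic summed ratio 1.3 and the mitochondrial summed ratio 1.16; with equal upper quartiles the cytosolic summed ratio was 1.11. Other thresholds and scalings move these values by construction, and otherwise the cause was not tested. Of 80 recomputed values, the other 69 stayed within a set range (the counting interval for ratios) or within 1.5 times their main count, the Agbl3 ratio included. For medians that range is wide. The mitochondrial median rose from 0.0198 to 0.178 with equal FPKM sums and still lay within its range of −0.203 to 0.243. Among the 69, 20 values come from 5 other depth settings, chosen after the data were seen. Each setting left 12 cytosolic intervals above 1 and 0 below, and 1 mitochondrial interval above and 2 below. No paired analysis was possible because each genotype had 1 library, and leaving out a library was not possible for the same reason. Variation between animals is unmeasured, and counting intervals do not cover it.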
